A study of Mus musculus with 6 samples.

Results

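The genes described here are 41 genes of the DNA replication machinery, chosen by name with earlier results of these data known. They are the genes of a written list that were among the 11386 genes measured in mouse dental mesenchymal cells (mDMCs). The mDMCs came from the mesenchyme of lower first molar tooth germs of ICR mouse embryos at embryonic day 14.5. P0 stands for cells taken straight from the tooth germ, and P1 and P2 for cells of the first and the second passage in culture, where a passage is a transfer of cells that have grown to near confluence on plastic in serum-containing medium. Each passage is represented by 2 libraries, so that 6 libraries were compared. Cells of all 3 passages were released with trypsin before RNA was extracted. The tooth germs had first been treated with dispase, a step that directly preceded the harvest of P0 only. P0 cells had not been grown in culture. Neither the number of embryos behind a library nor whether the duplicates were separate cultures is given.

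Every cell that divides copies its DNA once in S phase. In G1 phase the origin recognition complex, Cdc6 and Cdt1 load a ring of Mcm2 to Mcm7 onto DNA, and at the start of S phase the kinase Cdc7 with its partner Dbf4, together with Cdc45, the GINS complex and Mcm10, turns that ring into the active helicase. Primase and polymerase alpha then start new strands, polymerases delta and epsilon extend them on the sliding clamp PCNA, Fen1 and DNA ligase 1 join the pieces of the lagging strand, and chromatin assembly factor 1 places histones behind the fork. Many of these genes are known targets of E2F transcription factors, which are released when the retinoblastoma protein is phosphorylated, so their transcripts are widely read as a mark of cells that are passing through G1 and S phase. In the cap-stage tooth germ the mesenchyme around the enamel organ proliferates.

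The values are the authors' normalized expression values, not read counts, and are given in scaled units, which are parts per 1000000 of the total over all genes of a passage. A scaled unit equals 18.7 of the deposited values. They are not divided by transcript length, so levels are compared for each gene between passages and not between genes. The depth per library is unknown, and the sorted values of any pair of passages were identical at 80.1% to 87.3% of positions, so a shift shared by most genes may not show. Both library values of a gene were recovered from its deposited mean and error, but which of them is the first replicate was not. Changes are given throughout as log2 fold changes on the scale of log2(scaled value + 1), where low genes appear to change less than they did. A gene was called higher or lower at a limma Benjamini-Hochberg adjusted p under 0.05 over all 11386 genes together with a change of at least 2-fold, and the p-values measure only the spread between these libraries, which may be technical. The tables list genes with a deposited value over 100 in 2 or more of the libraries. Of the 41 replication genes, 39 were above 100 in all 6 libraries, *Gins1* was below it in 1 library of P2, and *E2f2* met the minimum through P0 alone, so that it had to differ from P0. Its call is included in the counts below.

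Markers of other cell types were also measured, and several were high in P0. All 10 listed markers of dental mesenchyme, among them *Msx1*, *Pax9*, *Barx1* and *Prrx1*, had means above 1 scaled unit in P0, P1 and P2, and 5 of them (*Pax9*, *Lhx6*, *Dlx1*, *Dlx2* and *Osr2*) fell in both cultured passages. Among all genes 12.0% were called lower in P1 and 14.4% in P2 than in P0. *Osr2* met the minimum of the tables through P0 and not through its cultured libraries, so its fall was favoured. Red cell markers, of which 9 of 12 were measured, summed to 10004 to 14249 scaled units in P0, 1.87 to 2.78 in P1 and 1.92 to 7.59 in P2, where each range runs from the sum of the lower to the sum of the higher library values. The 8 endothelial markers summed to 387 to 421 in P0, 4.27 to 9.83 in P1 and 2.67 to 6.36 in P2, and 4 of 8 markers of dental epithelium summed to 41.5 to 97.7 in P0, 1.12 to 2.35 in P1 and 1.07 to 2.03 in P2. The measured red cell, endothelial and epithelial markers met the minimum of the tables through P0 alone, so they had to be lower in culture. The 4 measured macrophage markers summed to 51.2 to 59.7 in P0, 13.6 to 17.4 in P1 and 36.6 to 63.5 in P2. *Lyz2* carried the P2 sum, with a mean of 36.9 in P2, against 7.67 in P0, while *Csf1r* and *Irf8* were called lower in P2 than in P0, with means of 3.05 and 0.588 in P2, against 17.9 and 15.1 in P0. *Csf1r* and *Irf8* also met the minimum through P0 alone, so they had to be lower in P2. Several markers were at 0 in both libraries: 3 red cell and 2 endothelial markers in P1, and 4 red cell, 3 endothelial and 1 epithelial marker in P2. The part of these cells in the replication transcripts of P0 was not tested. In bulk RNA fewer cells in S phase and less replication RNA per cell cannot be told apart.

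Many replication genes were lower in cultured cells, and the P2 libraries lay below the P1 libraries in nearly all of them. In P1, 17 of 41 fell relative to P0 and none rose (limma, 0 at an unadjusted p under 0.05), where 12.0% of all genes fell and 12.2% rose. Without regard to size, 32 of 41 were lower at an adjusted p under 0.05, where 29.1% of all genes were lower and 29.6% higher. Their median log2 fold change was -0.77, against 0.02 for all genes. In P2, 31 of 41 fell relative to P0 and none rose (0 at an unadjusted p under 0.05), where 14.4% of all genes fell and 14.0% rose. Without regard to size 39 of 41 were lower, where 32.1% of all genes were lower and 31.6% higher, and the median was -1.47, against 0.01 for all genes. Relative to P1, 1 gene fell in P2 and none rose (0 at an unadjusted p under 0.05), where 0.211% of all genes fell and 0.0878% rose, and the median was -0.64, against 0.00 for all genes. Without *E2f2*, 16 of 40 fell in P1 and 30 of 40 in P2 relative to P0. The single call for P2 against P1, *Tk1*, was lost in each fit with 1 value of a passage left out, in the fit of the P1 and P2 libraries alone (adjusted p = 0.183) and without a trend (adjusted p = 0.0539). Other calls lay at the 2-fold threshold: with 1 value of a passage left out, the P1 changes of *Cdt1* (-0.87), *Rfc3* (-0.93), *Tyms* (-0.98) and *Prim1* (-0.98) and the P2 change of *Pole* (-0.96) came under 2-fold, with adjusted p still under 0.05, and those of *Rfc5*, *Rpa1* and *Fen1* in P2 came over it. The comparisons of P1 and of P2 with P0 share the P0 libraries, and the P1 libraries enter both P1 against P0 and P2 against P1.

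**Figure D1:**
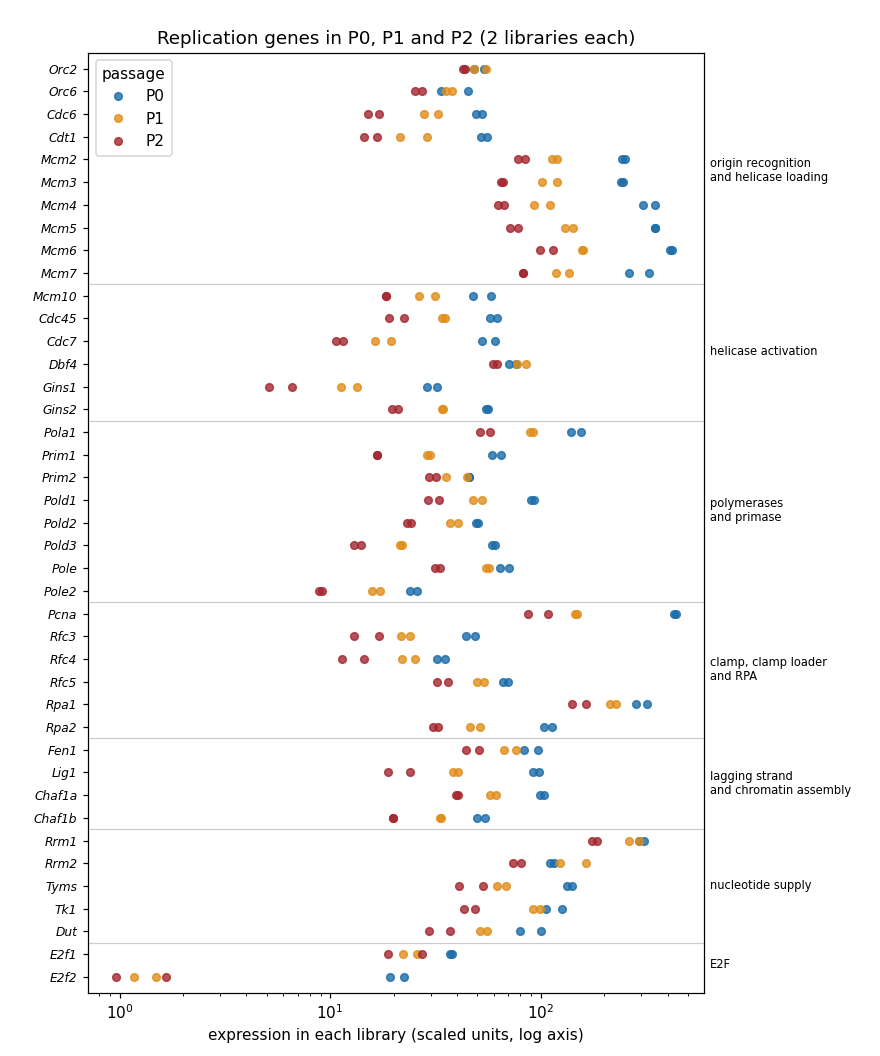
Expression of the 41 replication genes in each library, in scaled units on a log axis, grouped by role; each gene has 2 points for P0 (blue), P1 (orange) and P2 (red). In all 41 genes both P2 points lie below both P0 points, while P1 overlaps P0 in *Orc2* and *Orc6* and lies above it in *Dbf4* and *Rrm2*.

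The separation of the library values shows the same order. Both P1 values lay below both P0 values in 37 of 41 replication genes and in 40.9% of all genes, and above them in 2 replication genes and in 42.0% of all genes. For P2 against P0 both values were lower in 41 of 41, where 42.2% of all genes were lower and 43.0% higher. For P2 against P1 they were lower in 39 of 41 and higher in none, where 19.9% of all genes were lower and 19.4% higher. The exceptions in the last comparison were *E2f1* and *E2f2*. The duplicates of the replication genes lay close together, at a median log2 difference of 0.11 in P0, 0.13 in P1 and 0.12 in P2, against 0.10, 0.18 and 0.17 for all genes.

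**Figure D2:**
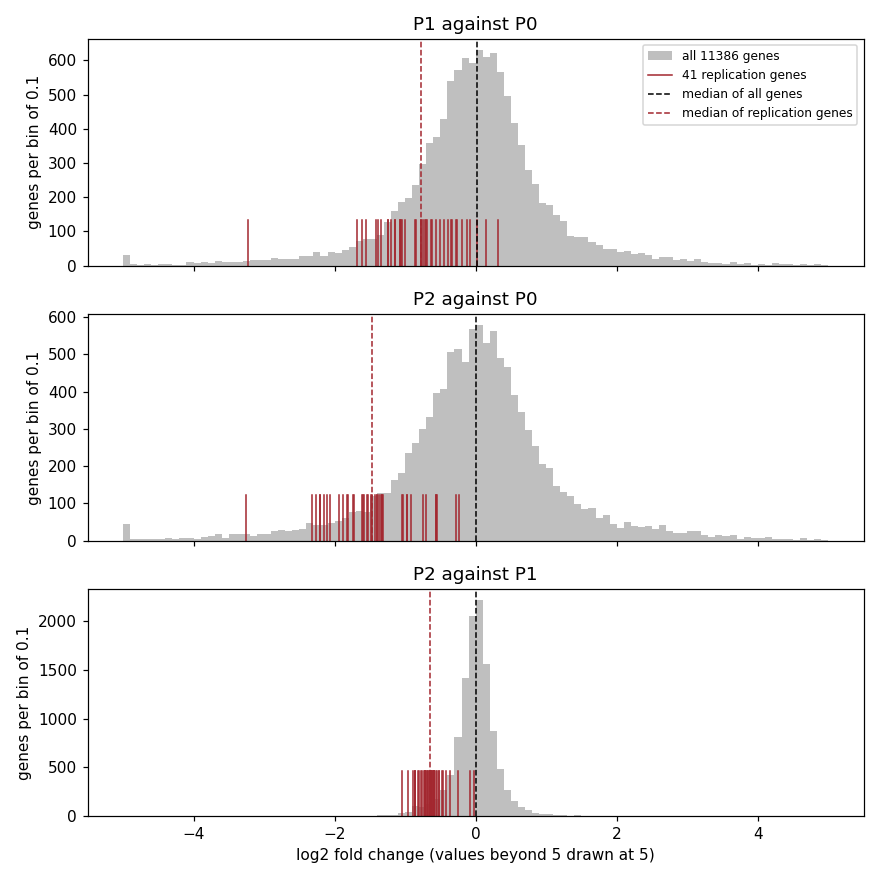
Distribution of log2 fold changes of all 11386 genes (grey, genes per bin of 0.1) for P1 against P0, P2 against P0 and P2 against P1, with each of the 41 replication genes as a red line and both medians dashed. The replication genes lie mostly left of 0 in each panel, with medians of -0.77, -1.47 and -0.64, while the median of all genes is close to 0.

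Since many of these genes fell together, their promoters were read for sequence motifs. RefSeq promoters (GRCm38, 250 bases before to 50 after a transcription start) were found for 36 of the 41 genes, taking the start nearest to that of the deposited transcript; *Mcm4*, *Gins1*, *Gins2*, *Prim2* and *Pole* had no entry. The E2F-type motif was searched as TTCCCGC or one of the related forms TTGGCGC and also TTGCCGC or else TTCGCGC on both strands, with overlapping matches counted separately and with overlap with a GC box allowed. It was present in 20 of 36 promoters of replication genes (55.6%), in 17.9% of 8912 promoters of measured genes and in 9.57% of all 32851 promoters. The NF-Y box CCAAT was present in 20 of 36 (55.6%), against 39.4% of measured genes and 37.4% of all promoters. The GC box GGGCGG was found in 25 of 36 (69.4%), against 67.9% and 35.7%, and the cell cycle homology region TTTGAA in 5 of 36 (13.9%), against 11.7% and 17.9%. Of the 20 genes with an E2F-type match, 18 were called lower in P2 than in P0 and *Rrm1* and *Rrm2* were not, and of the 16 without one, 9 were called lower, among them *Pcna*, *Lig1* and *Mcm2*. Over all genes the share called lower in P2 than in P0 was 14.4%. The 18 include *E2f2*, which met the minimum of the tables through P0 alone. The split by match was not tested. A match describes letters in this window and is not a measured binding site, and some windows lie away from the deposited start, by 3010 bases for *Pcna*.

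Stretches upstream of the RefSeq start that hold matches are shown for 6 genes called lower in P2 than in P0 and for *Rrm1*. They come from the helicase, the polymerases, RPA, chromatin assembly and nucleotide supply. *Orc2* is shown as an example of a window with no match. In *Prim1* the RefSeq start lies 43 bases after the deposited one, and the match lies between them. Each stretch is written 5′ to 3′ on the strand of the gene, with E2F-type matches in capitals.
Mcm5 (chr8:75109329-75109388, plus strand): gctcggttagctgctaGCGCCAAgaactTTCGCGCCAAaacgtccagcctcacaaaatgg
Mcm6 (chr1:128359736-128359825, minus strand): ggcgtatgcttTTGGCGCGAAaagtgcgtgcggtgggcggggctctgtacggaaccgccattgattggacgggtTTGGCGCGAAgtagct
Pola1 (chrX:93632256-93632335, minus strand): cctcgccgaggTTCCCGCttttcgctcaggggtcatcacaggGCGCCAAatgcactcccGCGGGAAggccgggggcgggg
Prim1 (chr10:128015155-128015214, plus strand): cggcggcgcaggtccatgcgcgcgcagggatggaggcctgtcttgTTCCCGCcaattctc
Rpa2 (chr4:132768300-132768359, plus strand): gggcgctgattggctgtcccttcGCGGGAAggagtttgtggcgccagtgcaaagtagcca
Chaf1a (chr17:56040336-56040395, plus strand): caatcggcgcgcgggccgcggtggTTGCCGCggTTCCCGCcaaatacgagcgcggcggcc
Rrm1 (chr7:102441595-102441654, plus strand): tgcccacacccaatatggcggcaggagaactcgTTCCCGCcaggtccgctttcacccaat
Orc2 (chr1:58505110-58505209, minus strand): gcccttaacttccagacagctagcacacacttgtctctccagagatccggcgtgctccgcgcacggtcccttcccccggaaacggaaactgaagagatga
In *Mcm6* the same run of letters, in which 2 matches overlap, occurs at 2 places of the stretch. The stretch of *Pola1* holds 3 separate matches, and that of *Chaf1a* has 2 with a pair of bases between them.

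**Figure D3:**
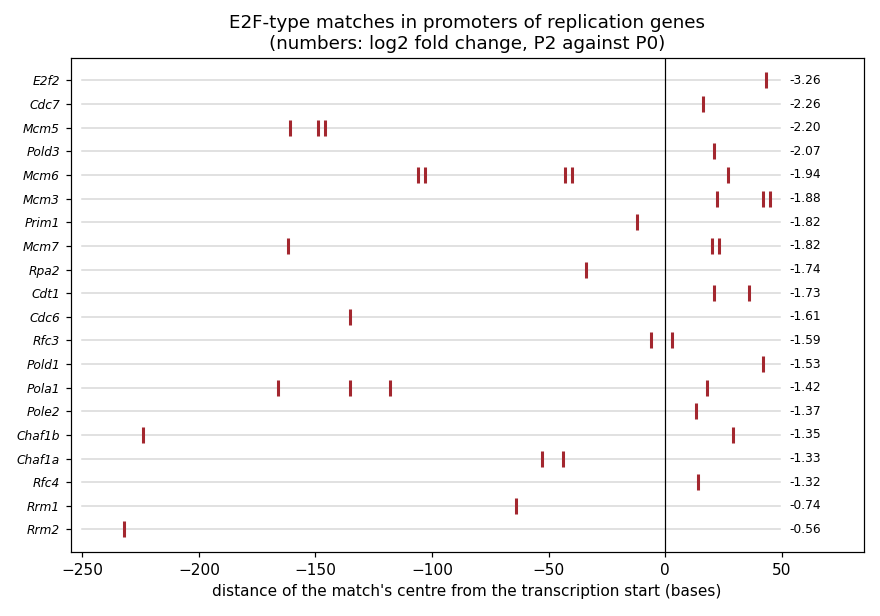
Positions of E2F-type matches (red marks) in the promoters of the 20 replication genes that hold any, in bases from the transcription start, with the log2 fold change for P2 against P0 at the right. Genes are ordered by that change, which runs from -3.26 in *E2f2* to -0.56 in *Rrm2*, and the matches fall on both sides of the start. *E2f2* met the minimum of the tables through P0 alone, so it had to be lower.

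Of the 10 genes of origin recognition and helicase loading, 7 fell in P1 and 8 in P2 relative to P0. Among all genes 12.0% fell in P1 and 14.4% in P2. The 6 helicase subunits were among the genes that fell in both passages. *Mcm4* (ENSMUSG00000022673, chromosome 16 from 15623897 to 15637400, mm10) had the largest fall of the 6. Its values were 307 and 349 in P0, 92.6 and 111 in P1, and 62.6 and 67.1 in P2 (scaled units). The passages did not overlap, and *Mcm4* fell, at -1.68 in P1 (standard error 0.12, adjusted p = 1.82e-04) and at -2.32 in P2 (standard error 0.12, adjusted p = 5.13e-05), to 19.8% of the P0 mean. *Mcm5* (ENSMUSG00000005410, chromosome 8 from 75109528 to 75128439) had 347 in both libraries of P0, 131 and 142 in P1, and 71.5 and 77.9 in P2. *Mcm6* had 411 and 418 in P0, 156 and 159 in P1, and 99.7 and 115 in P2. Thus *Mcm5* fell, at -1.34 in P1 and -2.20 in P2, and *Mcm6*, with 4 matches in the stretch above, at -1.39 and -1.94. *Mcm3* had 239.8 and 247 in P0, 102 and 119 in P1, and 65.1 and 66.04 in P2. *Mcm2* had 242 and 249.995 in P0, 113 and 120.02 in P1, and 77.7 and 84.2 in P2. *Mcm7* had 263 and 325 in P0, 118 and 136 in P1, and 82.3 in both libraries of P2. In these 3 subunits the P0 libraries were also highest and the P2 libraries lowest, with log2 fold changes in P2 of -1.88, -1.59 and -1.82. Across the 6 subunits the change ranged between -1.68 and -1.08 in P1 and between -2.32 and -1.59 in P2, both relative to P0. The locus of *Mcm7* overlaps those of *Ap4m1* and *Cops6* on the other strand, and use of strand in counting is not stated.

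Of the loading factors, *Cdt1* fell in both passages and *Cdc6* in P2, and neither origin recognition subunit was called. *Cdt1*, which brings the helicase to the origin, had 51.8 and 55.7 in P0, 21.5 and 28.9 in P1, and 14.4 and 16.7 in P2 (scaled units). It fell, at -1.08 in P1 (adjusted p = 0.00244) and -1.73 in P2 (adjusted p = 3.17e-04), and its locus lies within the measured gene *Gm20388* on the same strand, so reads could be divided between them. *Cdc6*, an ATPase of the loading step, had 49.5 and 52.9 in P0, 27.8 and 32.6 in P1, and 15.1 and 17.1 in P2. Its change in P1 was -0.75 (adjusted p = 0.00357), under 2-fold, and it fell in P2, at -1.61. *Orc2*, a core subunit of the origin recognition complex, had 47.97 and 53.95 in P0, 48.3 and 55.2 in P1, and 42.8 and 43.6 in P2. P0 and P1 overlapped, the difference of P1 from P0 was 0.02 with a 95% interval of -0.25 to 0.30, and that of P2 was -0.23 (95% interval -0.51 to 0.05, adjusted p = 0.12). The sign for P1 turned with median-ratio scaling, at -0.0038. The locus of *Orc2* overlaps that of *Nif3l1* on the other strand. *Orc6*, the smallest subunit, had 33.8 and 45.1 in P0, 35.6 and 38.03 in P1, and 25.4 and 27.4 in P2. It differed by -0.08 in P1 (adjusted p = 0.665) and -0.55 in P2 (adjusted p = 0.0212), the second below 2-fold.

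Among the 6 genes of helicase activation, 2 fell in P1 and 5 in P2 relative to P0. The shares of all genes that fell were 12.0% and 14.4%. *Cdc7*, the catalytic subunit of the kinase that fires origins, had 52.8 and 60.8 in P0, 16.3 and 19.4 in P1, and 10.6 and 11.5 in P2 (scaled units). It fell, at -1.62 in P1 (standard error 0.14, adjusted p = 2.87e-04) and -2.26 in P2 (adjusted p = 7.11e-05). *Dbf4*, which binds and activates the same kinase, had 70.5 and 76.4 in P0, 77.2 and 85.6 in P1, and 59.4 and 61.8 in P2. Its P1 values lay above and its P2 values below those of P0, with differences of 0.15 (95% interval -0.10 to 0.39) and -0.27 (95% interval -0.52 to -0.03, adjusted p = 0.0519), neither called. *Gins1* and *Gins2* encode subunits of the GINS complex of the moving helicase. *Gins1* had 28.95 and 32.3 in P0, 11.2 and 13.5 in P1, and 5.13 and 6.62 in P2, and fell, at -1.25 in P1 and -2.21 in P2, to 19.2% of the P0 mean. *Gins2* had 54.7 and 56.2 in P0, 33.97 and 34.2 in P1, and 19.6 and 21.1 in P2, with -0.69 in P1 (adjusted p = 0.00175), under 2-fold, and a fall in P2 at -1.40. The loci of *Gins2* and *Cdc45* overlap *Gm20388* and *Ufd1l* on the other strand. *Cdc45*, the third part of the active helicase, had 57.4 and 61.96 in P0, 33.97 and 34.9 in P1, and 19.02 and 22.4 in P2. *Mcm10*, a factor of helicase activation, had 47.9 and 57.8 in P0, 26.4 and 31.4 in P1, and 18.4 and 18.4 in P2. Both were below 2-fold in P1, at -0.77 and -0.85, and fell in P2, at -1.48 and -1.47.

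Of 8 genes of polymerases and primase, 2 fell in P1 and 7 in P2 relative to P0. Among all genes 12.0% fell in P1 and 14.4% in P2. *Pold3*, an accessory subunit of polymerase delta, had 58.4 and 60.7 in P0, 21.5 and 21.95 in P1, and 12.9 and 14.00 in P2 (scaled units) and the largest fall of these genes, at -1.41 in P1 (adjusted p = 1.74e-04) and -2.07 in P2 (adjusted p = 4.20e-05). *Pold1*, the catalytic subunit of the same enzyme, had 90.3 and 93.3 in P0, 47.9 and 52.4 in P1, and 29.2 and 33.02 in P2. *Pold2*, its second subunit, had 49.04 and 50.3 in P0, 36.96 and 40.5 in P1, and 23.1 and 24.2 in P2. In P1 the changes of *Pold1* and *Pold2* were -0.86 and -0.35, under 2-fold, and in P2 both fell, at -1.53 and -1.04. Among these 3 subunits the P2 means ranged from 22.6% of the P0 mean for *Pold3* to 47.6% for *Pold2*.

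Of the subunits of primase, *Prim1* fell in both passages and *Prim2* in neither. *Prim1*, the catalytic subunit, had 58.9 and 64.8 in P0, 28.8 and 29.9 in P1, and 16.8 in both libraries of P2 (scaled units), and fell, at -1.05 in P1 and -1.82 in P2. *Prim2*, the large subunit, had 45.4 and 45.6 in P0, 35.4 and 44.4 in P1, and 29.5 and 31.7 in P2, with -0.19 in P1 (adjusted p = 0.246) and -0.56 in P2 (adjusted p = 0.0109), neither called. The 95% intervals for P2 against P0 were -2.07 to -1.57 for *Prim1* and -0.88 to -0.24 for *Prim2*. *Pola1*, the catalytic subunit of polymerase alpha, had 139 and 156 in P0, 88.7 and 91.7 in P1, and 51.3 and 57.7 in P2. *Pole*, the catalytic subunit of polymerase epsilon, had 64.1 and 70.8 in P0, 54.7 and 56.8 in P1, and 31.6 and 33.2 in P2. *Pole2*, its second subunit, had 24.04 and 25.7 in P0, 15.9 and 17.3 in P1, and 8.87 and 9.19 in P2. In P1 these 3 changed by less than 2-fold, at -0.70, -0.27 and -0.56, and in P2 they fell, at -1.42, -1.03 and -1.37.

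In the group of clamp, clamp loader and replication protein A (RPA), 3 of 6 genes fell in P1 and 4 of 6 in P2 relative to P0. The shares of all genes that fell were 12.0% and 14.4%. *Pcna* (ENSMUSG00000027342, chromosome 2 from 132249162 to 132250170 for the deposited transcript), the sliding clamp, had 427 and 439 in P0, 145 and 148 in P1, and 87.1 and 108 in P2 (scaled units). It fell, at -1.55 in P1 (standard error 0.12, adjusted p = 2.03e-04) and -2.15 in P2 (standard error 0.12, adjusted p = 5.57e-05). The processed pseudogene *Pcna-ps2* was measured too, with means of 112, 43.6 and 27.6 in P0, P1 and P2, and reads may have been divided between the copies. RPA coats single DNA strands at the fork. *Rpa2*, its middle subunit, had 104 and 113 in P0, 45.9 and 51.3 in P1, and 30.9 and 32.6 in P2, and *Rpa1*, its largest subunit, had 283 and 320.3 in P0, 212 and 227 in P1, and 141 and 164 in P2. *Rpa2* fell, at -1.14 in P1 and -1.74 in P2, whereas *Rpa1* was at -0.45 and -0.98, under 2-fold in both (adjusted p = 0.0159 and 6.67e-04).

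The clamp loader opens PCNA and places it on DNA. Its subunit gene *Rfc3* had 44.3 and 48.8 in P0, 21.7 and 23.8 in P1, and 12.9 and 16.99 in P2 (scaled units). *Rfc4* had 32.3 and 35.04 in P0, 21.9 and 25.2 in P1, and 11.4 and 14.4 in P2. *Rfc5* had 66.2 and 70.1 in P0, 50.05 and 53.7 in P1, and 32.2 and 36.2 in P2. No passage overlapped another in these genes. *Rfc3* fell, at -1.002 in P1, at the edge of the 2-fold threshold, and at -1.59 in P2. *Rfc4* was at -0.50 in P1 and fell in P2, at -1.32, and *Rfc5* was at -0.39 and -0.98, just outside the threshold in P2. *Rpa1* and *Rfc5* lay nearest to 2-fold among the genes not called in P2, and *Pole* and *Pold2* among those called. The loci of *Rfc4* and *Rfc5* overlap *Eif4a2* and *Wsb2* on the other strand.

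**Figure D4:**
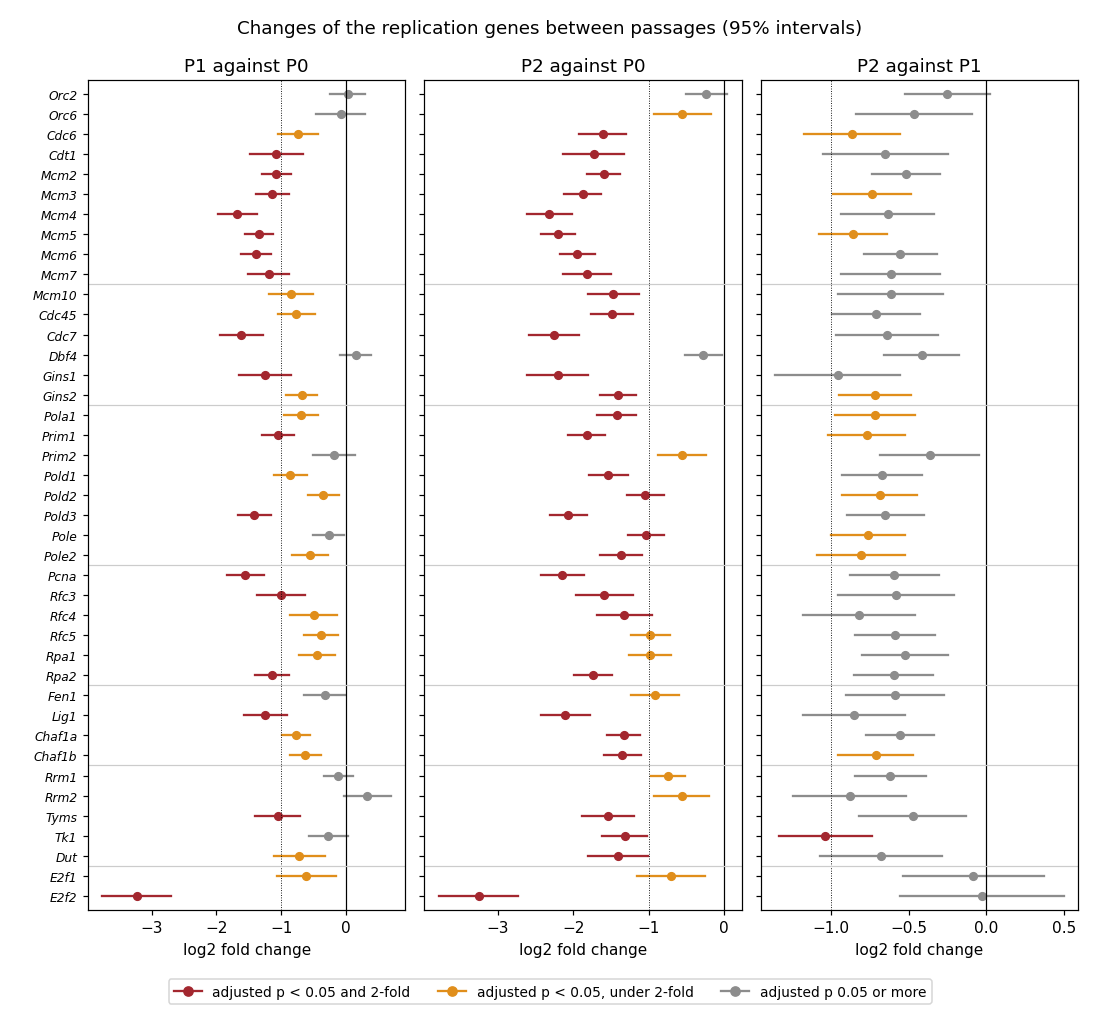
Log2 fold changes of the 41 replication genes (points) with 95% intervals (lines) for P1 against P0, P2 against P0 and P2 against P1; red marks an adjusted p under 0.05 with a 2-fold change, orange the same p below 2-fold, grey the rest, and the dotted line 2-fold. Red points number 17, 31 and 1, and in P2 against P1 only the intervals of *Orc2*, *E2f1* and *E2f2* include 0.

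On the lagging strand, *Lig1* fell in both passages and *Fen1* in neither. *Lig1*, DNA ligase 1, had 91.6 and 97.6 in P0, 38.2 and 40.3 in P1, and 18.8 and 23.99 in P2 (scaled units). It fell, at -1.25 in P1 (adjusted p = 6.76e-04) and -2.10 in P2 (adjusted p = 8.66e-05). *Fen1*, the flap nuclease that trims the pieces before ligation, had 83.4 and 97.1 in P0, 67.1 and 76.2 in P1, and 44.02 and 50.8 in P2, with -0.33 in P1 (adjusted p = 0.0703) and -0.91 in P2 (adjusted p = 0.00143), under 2-fold. *Chaf1a* and *Chaf1b* encode the large and the middle subunit of chromatin assembly factor 1. *Chaf1a* had 99.7 and 104 in P0, 57.4 and 61.2 in P1, and 39.5 and 40.4 in P2. *Chaf1b* had 49.9 and 54.6 in P0, 33.2 and 33.4 in P1, and 19.9 and 19.98 in P2. Both were alike in their log2 fold changes, at -0.77 and -0.63 in P1, under 2-fold, and with falls in P2 at -1.33 and -1.35. The loci of *Fen1*, *Lig1* and *Chaf1a* overlap *Tmem258*, *6330408A02Rik* and *Ubxn6* on the other strand.

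Of the 5 genes of nucleotide supply, 1 fell in P1 and 3 fell in P2 relative to P0. Among all genes 12.0% fell in P1 and 14.4% in P2. *Tyms*, thymidylate synthase, had 133 and 141 in P0, 61.9 and 68.7 in P1, and 40.98 and 53.1 in P2 (scaled units), and fell, at -1.06 in P1 (adjusted p = 0.00147) and -1.53 in P2. *Dut*, the dUTPase that keeps uracil out of DNA, had 79.5 and 99.9 in P0, 51.3 and 55.9 in P1, and 29.4 and 37.1 in P2, with -0.72 in P1 (adjusted p = 0.0101), under 2-fold, and a fall in P2 at -1.41. In both genes the 3 passages did not overlap. *Tk1* (ENSMUSG00000025574, chromosome 11 from 117815526 to 117826092), the thymidine kinase of S phase, had 106 and 126 in P0, 91.4 and 99.6 in P1, and 43.4 and 48.5 in P2. Here the P1 libraries lay just below those of P0, at -0.28 (adjusted p = 0.0997), and *Tk1* fell in P2 relative to P0, at -1.31 (standard error 0.12, adjusted p = 3.00e-04). *Rrm1* and *Rrm2* encode the large and the small subunit of ribonucleotide reductase, which makes deoxynucleotides. *Rrm1* had 293 and 311 in P0, 262 and 293 in P1, and 176 and 185 in P2. *Rrm2* (ENSMUSG00000020649, chromosome 12 from 24708241 to 24714146) had 111 and 116 in P0, 123 and 165 in P1, and 73.6 and 80.2 in P2. The P1 libraries of *Rrm2* were the highest of the 6 and the P2 libraries the lowest, although neither its difference in P1 (0.32, 95% interval -0.04 to 0.69) nor that in P2 (-0.56, adjusted p = 0.0177) was called, and *Rrm1* was at -0.12 and -0.74.

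Of the E2F activators on the list, *E2f2* was called in both passages and *E2f1* stayed under 2-fold, and for both the interval of P2 against P1 included 0. *E2f2* (ENSMUSG00000018983, chromosome 4 from 136172394 to 136196057) had 19.2 and 22.5 in P0, 1.18 and 1.496 in P1, and 0.962 and 1.66 in P2 (scaled units). Since it was in the tables only for its P0 values, its differences from P0 are a description, at -3.23 in P1 and -3.26 in P2, and the means of P1 and P2 were 6.39% and 6.27% of that of P0. The difference of P2 from P1 was -0.03, with a 95% interval of -0.56 to 0.50. *E2f1* had 37.1 and 37.7 in P0, 22.3 and 25.96 in P1, and 18.8 and 27.2 in P2. It was at -0.62 in P1 (adjusted p = 0.0304) and -0.70 in P2 (adjusted p = 0.0175) relative to P0, under 2-fold, and P2 differed from P1 by -0.08 (95% interval -0.54 to 0.37), with P2 values on both sides of those of P1. Cells of the red lineage are known to use *E2f2*. The measured red cell markers were also lower in culture, as were those of endothelium and dental epithelium. Like *E2f2*, all of these met the minimum through P0 alone. The part of any of these cells in the difference of *E2f2* was not tested.

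Between P2 and P1 the differences of the replication genes lay in a narrow range. The quartiles of their log2 fold changes were -0.74 and -0.56, whereas for P1 against P0 they were -1.14 and -0.39. *Tk1* alone was called, at -1.04 (standard error 0.12, adjusted p = 0.0386), with 43.4 and 48.5 in P2, against 91.4 and 99.6 in P1. A further 10 genes had an adjusted p under 0.05 below 2-fold, which makes 11 of 41 at that p, where 0.905% of all genes were lower and 0.167% higher. They were *Mcm5* (-0.86), *Cdc6* (-0.87), *Pole2* (-0.81), *Prim1* (-0.77), *Pole* (-0.77), *Mcm3* (-0.74), *Pola1* (-0.72), *Gins2* (-0.72), *Chaf1b* (-0.71) and *Pold2* (-0.69). *Gins1* had a larger difference, -0.96, at an adjusted p of 0.0631. At an unadjusted p under 0.05, 38 of 41 were lower in P2 and none higher, without regard to size. Of all 11386 genes, 951 were lower and 679 higher at that p. In a fit of the 4 cultured libraries alone, none of the 41 was called (1 at an unadjusted p under 0.05 with 2-fold), and with 1 of its 4 values left out the adjusted p of *Tk1* was 0.0647 to 0.162.

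Other genes of replication gave a wider range. Of 64 genes on 3 further lists, all measured, 12 fell and 2 rose in P1 relative to P0, where 12.0% of all genes fell and 12.2% rose. In P2, 31 fell and 2 rose relative to P0, where 14.4% of all genes fell and 14.0% rose. *Dscc1*, called lower in both, met the minimum of the tables through P0 and not through its cultured libraries. The 2 genes that rose, described below, met it through the cultured libraries and not through P0. The calls of these genes are included in both counts. Medians were -0.50 in P1 and -0.95 in P2. For P2 against P1, 1 fell and none rose (limma, 0 at an unadjusted p under 0.05), with a median of -0.42. Of all genes, 0.211% fell and 0.0878% rose in that comparison. *Nasp*, a histone chaperone gene, had 554 and 594 in P0, 121 and 152 in P1, and 66.8 and 78.2 in P2 (scaled units), and fell, at -2.07 in P1 and -2.97 in P2. *Timeless*, a fork protection factor, had 129 and 131 in P0, 41.7 and 42.8 in P1, and 26.5 and 27.3 in P2, and fell, at -1.59 and -2.23. *2810417H13Rik*, which encodes the PCNA-associated factor, had 205 and 228 in P0, 95.3 and 97.4 in P1, and 44.02 and 48.3 in P2, with falls at -1.16 and -2.21 relative to P0, and at -1.05 in P2 relative to P1 (adjusted p = 0.0386).

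The 2 genes called higher in P1 and in P2 than in P0 were *Pold4* and *Rrm2b*. *Pold4*, the small subunit of polymerase delta, had 4.91 and 6.36 in P0, 17.9 and 18.8 in P1, and 22.3 and 24.2 in P2 (scaled units), and rose by 1.55 in P1 (adjusted p = 4.30e-04) and 1.88 in P2 (adjusted p = 1.62e-04). *Rrm2b*, the p53-inducible small subunit of ribonucleotide reductase, had 5.34 and 6.41 in P0, 11.96 and 13.8 in P1, and 15.2 and 15.6 in P2, and rose by 1.02 in P1 (adjusted p = 0.00191) and 1.26 in P2 (adjusted p = 6.54e-04). *Rrm2b* was chosen for description after its values were seen. Neither gene met the minimum of the tables through P0, only through the cultured libraries. A rise in culture was thus favoured, and both rises are a description. In both genes the P2 values lay above those of P1 and the P1 values above those of P0, the opposite order to *Pold1*, *Pold2* and *Pold3*. Of the 8 other genes of the E2F family and its partners, 1 fell in P1 (*Tfdp2*, -1.01) and 1 in P2 (*E2f8*, -1.06), and none rose (limma, 0 at an unadjusted p under 0.05 in each). This is near the share of all genes that fell, 12.0% in P1 and 14.4% in P2, and both genes were named after their values were seen.

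A list of 20 genes of G2 and M phase was set beside the replication genes. Relative to P0, 2 of 20 fell in P1, where 12.0% of all genes fell, and 9 of 20 fell in P2, where 14.4% of all genes fell. The P1 count is thus near the share of all genes. The medians were -0.21 in P1 and -0.94 in P2, against -0.77 and -1.47 for the replication genes. For P2 against P1 the median was -0.84, against -0.64 for the replication genes. In that comparison *Top2a*, topoisomerase 2 alpha, and *Kif11*, a spindle motor, fell, at -1.20 and -1.03, and 14 of 20 were lower at an adjusted p under 0.05, where 0.905% of all genes were. *Plk1*, a mitotic kinase, had 39.4 and 45.03 in P0, 61.6 and 67.8 in P1, and 35.3 and 36.1 in P2 (scaled units), with P1 above P0 and P2 below both. Its differences from P0 were 0.61 in P1 (adjusted p = 0.00468), under 2-fold, and -0.23 in P2. These medians are a description, the difference between the lists was not tested, and *Plk1* was chosen after its values were seen.

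**Figure D5:**
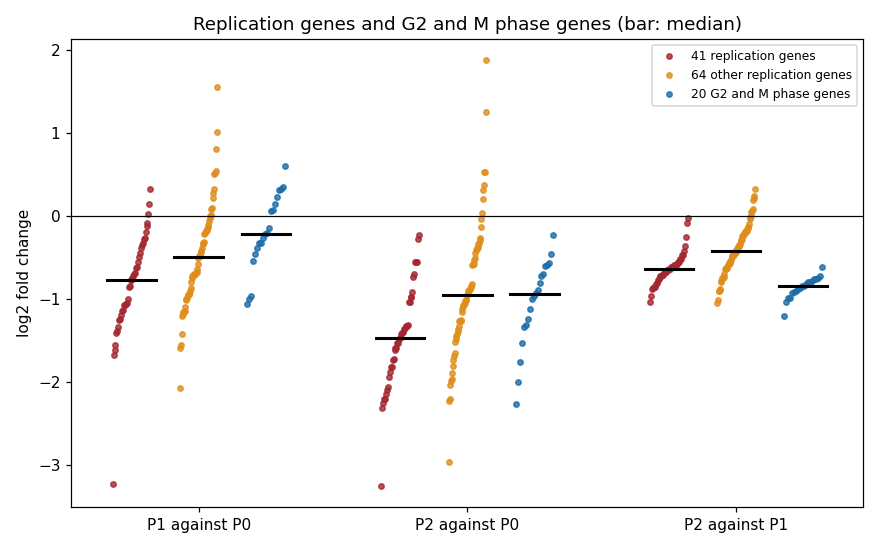
Log2 fold changes of the 41 replication genes (red), 64 other replication genes (orange) and 20 genes of G2 and M phase (blue) in each comparison, with points sorted by value and bars at the medians. The medians are -0.77, -0.50 and -0.21 for P1 against P0, -1.47, -0.95 and -0.94 for P2 against P0, and -0.64, -0.42 and -0.84 for P2 against P1.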

How the data were processed

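RNA sequencing of mDMCs gave duplicate libraries of P0, P1 and P2, 6 in total. The authors mapped reads to the mouse transcriptome (mm10, Ensembl) with bowtie and RSEM (version 1.1.21 in the submitters' processing notes) and normalized them for GC content with EDASeq. For every passage a table of means and errors was deposited, and the score it holds is the authors' normalized value. Library values were recovered from mean and error as whole numbers (11386 genes, tolerance 1e-06). One entry per table is not reported here. Log2(scaled value + 1) was fitted in R 4.3.3 with limma 3.58.1 (lmFit, eBayes with trend). The 6 libraries left 3 residual degrees of freedom, to which the prior added 3.06. All genes passed a filter of 1 scaled unit in 2 libraries. The script was tested on simulated data. Figures were made with Python 3.11.15 and matplotlib 3.10.9. The genes, lists and motifs were chosen with earlier results of these data known. Library values are given for every called gene and, in each role, for the genes with the largest and smallest change between P1 and P2. Other replication genes were named if called in P2 against P1 or among the 3 largest changes in P1 or in P2 relative to P0. *Rrm2b*, *Tfdp2*, *E2f8* and *Dscc1* were named after their values were seen. The settings varied were pseudocount, filter, scaling, passages fitted, variance model, call rule and left-out values.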

Additional observations from a re-analysis of the deposited data

How the results depend on the processing

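Pseudocounts of 0.5 and 0.1, no filter, a filter of 5 scaled units, median-ratio and upper-quartile scaling left each count of called genes within 1.5 times its value. At an adjusted p under 0.05 of any size, 32 of the 41 replication genes were lower in P1 than in P0 (all genes: 3367 higher and 3318 lower; P2 against P0: 3596 higher and 3652 lower), and 11 were lower in P2 than in P1 (all genes: 19 higher and 103 lower). For P2 against P1 the fit of 4 libraries called 0 replication genes (1 at an unadjusted p under 0.05 with 2-fold) and 0 genes higher and 0 lower of 11219, eBayes without a trend called 0 replication genes (1 at that unadjusted p), 0 genes higher and 2 lower, and an adjusted p under 0.1 gave 19 genes higher and 41 lower, against 10 and 24. The causes were not tested.

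Since the tables do not say which value is which library, the higher or the lower value of 1 passage was left out in every gene in turn. Replication genes lower in P1 than in P0 then numbered 14 to 17, in P2 against P0 30 to 34 and in P2 against P1 0 to 0, with medians of -0.83 to -0.72, -1.57 to -1.36 and -0.72 to -0.54. Over all genes 1134 to 1622 were higher and 1083 to 1570 lower in P1 than in P0, 1382 to 1831 and 1412 to 1922 in P2 than in P0, and 0 to 2 and 0 to 15 in P2 than in P1. In P1, *Cdt1*, *Rfc3*, *Tyms* and *Prim1* lost their calls in this way, and in P2 *Pole* did. Signs of small differences turned: *Orc2* in P1 ran from -0.074 to 0.11 (and was -0.0038 with median-ratio scaling), *Orc6* in P1 from -0.29 to 0.12, *E2f1* in P2 against P1 from -0.34 to 0.17, and *E2f2* from -0.25 to 0.19. No paired analysis was possible because the tables do not assign values to replicate numbers, and the fit with a replicate block was not run. The depth per library is unknown, so no counting error can be given.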
